A study of Mus musculus with 6 samples.

Results

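The hypothalamic neuropeptide genes described here are *Avp*, *Oxt*, *Hcrt*, *Pmch*, *Pomc*, *Agrp*, *Gal*, *Trh*, *Cartpt* and *Ghrh*, 10 of the 52390 genes listed in the count table, each matched by its symbol. They were chosen as peptides of hypothalamic neurons that would be out of place in prefrontal cortex, and because markers of the hypothalamus had been seen to vary between libraries of the same group. Their levels in each library are therefore given as a description, with no test. The comparison between the groups uses the same values and comes from a fit over all genes.

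RNA of brain tissue was sequenced from 3 *AP1AR-DT* OE mice and 3 control mice to study the function of *AP1AR-DT*, a human long non-coding RNA linked to bipolar disorder that is also named *AC109347.1*. *AP1AR-DT* OE mice received a recombinant adeno-associated virus (rAAV) carrying *AP1AR-DT* under the synapsin I promoter of human, a promoter used in neurons, and control mice, labelled wild type, received an empty AAV vector. All mice of the study were males of the C57BL/6J strain injected in the mPFC (medial prefrontal cortex) at 8 weeks of age, so every library comes from a brain that had been injected with a virus whose EGFP reporter was driven by the CMV promoter. The labels name the tissue as brain, the methods of the study as cortical tissue and its results as mPFC, and the share of cells reached by the virus is not given. The control libraries are numbered as their mice, 1 to 3. The *AP1AR-DT* OE libraries are called A, B and C, because their columns do not give the mouse. The counts are of mouse genes and the level of the human *AP1AR-DT* was not analysed here, so the labels were not checked against it.

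Library totals ranged from 42061721 to 54668294 counts, and 3 counts in a library, taken here as the floor of detection, equal 0.0556 to 0.0737 normalized CPM (CPM after TMM scaling of the library totals). Mitochondrial genes took 7.20% to 9.86% of the counts in control mice and 5.75% to 6.80% in *AP1AR-DT* OE mice. The markers of cortical excitatory neurons checked here differed widely between libraries of the same group. *Slc17a7*, the vesicular glutamate transporter of most cortical excitatory neurons, was at 28.2, 3.86 and 233 normalized CPM in control libraries 1, 2 and 3, and at 231, 463 and 87.2 in *AP1AR-DT* OE libraries A, B and C. *Neurod6*, a transcription factor of the same neurons, was at 0.0803 normalized CPM in control 2, close to the floor, and at 23.0 in control 3. In bulk tissue, fewer cells of a type and less RNA per cell cannot be told apart, which holds for each level given below.

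Neuropeptides are cut from larger precursor proteins, stored in dense-core granules and released to act on G protein-coupled receptors. In the hypothalamus, each is made by neurons that sit in particular nuclei: vasopressin and oxytocin in the paraventricular and supraoptic nuclei, orexin and melanin-concentrating hormone in separate neurons of the lateral area, and the POMC and AgRP peptides in the arcuate nucleus. Thyrotropin-releasing hormone, galanin and CART are made in several hypothalamic nuclei and also elsewhere in the brain, CART among other places in the striatum.

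All 10 genes are protein-coding in GENCODE vM21 on GRCm38. *Avp* lies at chr2:130580620-130582554 on the minus strand and *Oxt* at chr2:130576173-130577054 on the plus strand, so the genes point towards each other with 3565 bases between them. *Hcrt* lies at chr11:100761069-100762931 on the minus strand. *Pmch* lies at chr10:88091072-88092375 on the plus strand, and 435 of its 749 exonic bases overlap exons of *Parpbp* on the other strand. The use of strand in the counting is not stated for these libraries, so reads of *Pmch* and *Parpbp* cannot be told apart there. *Agrp*, at chr8:105566698-105637393 on the minus strand, shares 114 exonic bases with *Gm5914* on the same strand and 114 with *Ctcf* on the other strand. These may be the same bases. The other members share no exonic base with another gene. They are *Pomc* (chr12:3954951-3960642, plus strand), *Gal* (chr19:3409915-3414544, minus strand), *Trh* (chr6:92242061-92244650, minus strand), *Cartpt* (chr13:99898489-99901091, minus strand) and *Ghrh* (chr2:157329497-157347506, minus strand).

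*Avp*, *Oxt*, *Hcrt* and *Pmch* are the members that passed the thresholds of differential expression below, and their promoters are shown for that reason. Each sequence holds the 250 bases before the transcription start in RefSeq on GRCm38.p6, read 5′ to 3′ on the strand of the gene. Capitals mark ATAAA, the letters used here for a TATA box, within the last 45 bases, and AGGTCA, the core bound by many nuclear receptors, on either strand. The windows are chr2:130582589-130582838 (minus strand) for *Avp*, chr2:130575919-130576168 (plus strand) for *Oxt*, chr11:100762932-100763181 (minus strand) for *Hcrt* and chr10:88090822-88091071 (plus strand) for *Pmch*.
Avp: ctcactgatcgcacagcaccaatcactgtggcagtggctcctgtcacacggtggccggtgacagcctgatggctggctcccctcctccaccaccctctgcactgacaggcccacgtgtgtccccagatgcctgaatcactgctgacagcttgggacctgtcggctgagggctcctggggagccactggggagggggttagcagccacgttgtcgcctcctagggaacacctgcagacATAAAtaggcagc
Oxt: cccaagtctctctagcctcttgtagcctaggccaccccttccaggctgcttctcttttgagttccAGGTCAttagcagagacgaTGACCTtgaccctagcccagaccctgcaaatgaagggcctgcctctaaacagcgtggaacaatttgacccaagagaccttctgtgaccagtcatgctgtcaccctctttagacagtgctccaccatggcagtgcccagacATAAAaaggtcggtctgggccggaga
Hcrt: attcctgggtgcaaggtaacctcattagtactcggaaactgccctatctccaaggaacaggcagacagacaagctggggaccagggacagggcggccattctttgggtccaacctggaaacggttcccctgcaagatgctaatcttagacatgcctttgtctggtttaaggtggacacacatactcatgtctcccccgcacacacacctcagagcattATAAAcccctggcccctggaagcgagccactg
Pmch: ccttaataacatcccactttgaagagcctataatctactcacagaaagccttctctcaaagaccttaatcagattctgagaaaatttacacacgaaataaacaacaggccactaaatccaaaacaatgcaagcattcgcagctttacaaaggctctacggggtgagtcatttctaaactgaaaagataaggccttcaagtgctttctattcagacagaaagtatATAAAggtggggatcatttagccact

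RefSeq promoters were matched by symbol for 9 of the 10 genes (all but *Agrp*). ATAAA in the last 45 bases on the strand of the gene was found in 6 of the 9 (*Avp*, *Oxt*, *Hcrt*, *Pmch*, *Pomc* and *Ghrh*) and in 6.07% of 32536 promoters of mouse genes. In the sequences printed above it begins 13 bases before the start in *Avp*, 26 in *Oxt*, 32 in *Hcrt* and 26 in *Pmch*. AGGTCA on either strand was found in *Oxt*, *Pomc*, *Trh* and *Ghrh*, and in 14% of all promoters. *Oxt* holds it at 2 places, in opposite orientations. TAATTA, a core bound by homeodomain factors, was found in *Pomc* and *Ghrh* and in 4.84% of promoters. TGACG, part of the cAMP response element, was found on either strand in *Trh*, *Cartpt* and *Ghrh* and in 17.9% of promoters. The E-box CANNTG was found in 6 of the 9 and in 66.2% of promoters. These matches are letters in a window and were not tied to binding of any factor.

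Of the 10 genes, 9 had enough counts to be tested, and *Ghrh* did not. At the thresholds of the study (*P* under 0.05 and |Log2FC| above 0.32), edgeR's quasi-likelihood test called 4 of the 9 DEGs, *Avp*, *Oxt*, *Hcrt* and *Pmch*, each lower in *AP1AR-DT* OE mice. Among all 21844 genes tested, 12.2% were DEGs and 7.15% were DEGs lower in *AP1AR-DT* OE mice, and 5.1% DEGs higher. Since the members were chosen on their levels in these libraries, nothing is read from this count. After Benjamini-Hochberg adjustment over all genes, 0 of the 9 passed 0.05 in edgeR's quasi-likelihood test (adjusted *P* from 0.295 to 0.975), against 0.0275% of all genes tested. DESeq2's Wald test called *Avp* alone of the members at an adjusted *P* under 0.05, against 2.06% of all genes tested. The lowest and the highest values of the groups overlapped in 9 of 9 members, while the groups did not overlap in 22.4% of all genes tested. The median Log2FC of the 9 was -2.14, and that of all genes tested -0.01. An unadjusted *P* under 0.05 was found for 4 of the 9 and for 15.1% of all genes tested. When control 2 and control 3 were both left out, 0 of the 9 were DEGs, against 7.59% of all genes tested in that fit.

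**Figure D1:**
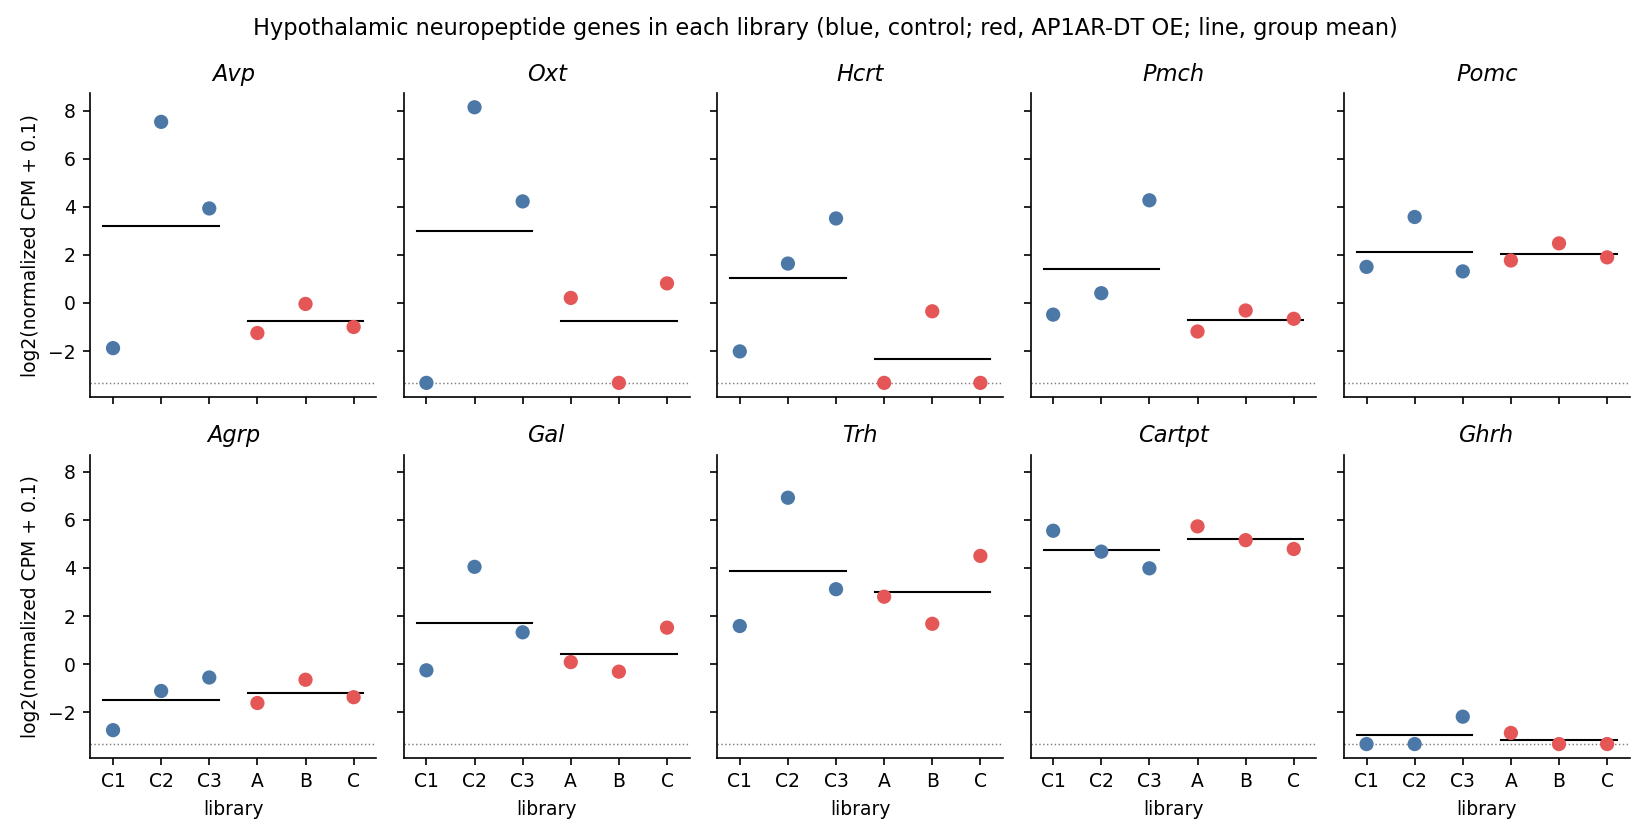
Level of each of the 10 neuropeptide genes in each library, as log2(normalized CPM + 0.1), in control libraries 1 to 3 (C1 to C3, blue) and *AP1AR-DT* OE libraries A to C (red). Black lines are the means of these log2 values over the 3 libraries of a group, and the dotted line marks 0 counts. Control 2 is the highest library for *Avp*, *Oxt*, *Pomc*, *Gal* and *Trh*, and control 3 for *Hcrt*, *Pmch*, *Agrp* and *Ghrh*, while control 1 lies with or below the *AP1AR-DT* OE libraries for *Avp*, *Oxt* and *Trh*.

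*Avp*, which encodes the precursor of vasopressin, the antidiuretic hormone, was at 0.172, 184 and 15.1 normalized CPM in controls 1, 2 and 3, and at 0.321, 0.872 and 0.40 in *AP1AR-DT* OE libraries A, B and C. Control 2 and control 3 were far above the other 4 libraries, and control 1 was the lowest of all 6. Control 2 alone held 91.5% of the 10035 counts of the gene, and its level was 1072-fold that of control 1 of the same group. The group means were 66.6 ± 102 (SD, n = 3) in control and 0.531 ± 0.298 (SD, n = 3) in *AP1AR-DT* OE mice. The Log2FC was -6.96 ± 2.04 (SE), past the DEG thresholds but with a Benjamini-Hochberg adjusted *P* of 0.295 by edgeR's quasi-likelihood test. Without control 2 the Log2FC was -3.84. Without both control 2 and control 3 it was 1.61, but that choice was made after seeing the levels. It left control 1, the lowest library, as the only control, so no conclusion is drawn from the sign.

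*Oxt* encodes the precursor of oxytocin, the hormone of milk let-down and parturition. It was at 0, 281 and 18.6 normalized CPM in controls 1, 2 and 3, and at 1.06, 0 and 1.66 in *AP1AR-DT* OE libraries A, B and C. As with *Avp*, control 2 and then control 3 were the highest libraries, and control 1 and library B had no count at all. Control 2 held 92.9% of the 15060 counts and was at least 3810-fold above control 1, taking 3 counts in control 1 as the floor. The group means were 99.8 ± 157 (SD, n = 3) and 0.905 ± 0.839 (SD, n = 3), with a Log2FC of -6.79 ± 2.38 (SE) and a Benjamini-Hochberg adjusted *P* of 0.296 by edgeR's quasi-likelihood test. Without control 2 the Log2FC was -3.35 and no longer passed the DEG thresholds. The ratio of *Oxt* to *Avp* counts was 1.52 in control 2 and 1.23 in control 3, although their levels in these libraries differed 15.1-fold and 12.2-fold. It was 3.29 in library A and 4.14 in library C, where *Avp* had 17 and 21 counts.

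*Hcrt*, the precursor of the orexins that keep animals awake, was at 0.147, 3.01 and 11.3 normalized CPM in controls 1, 2 and 3, and at 0, 0.686 and 0 in *AP1AR-DT* OE libraries A, B and C. Here control 3, not control 2, was the highest library, 3.76-fold above control 2, and it held 74.5% of the 758 counts. The group means were 4.82 ± 5.80 (SD, n = 3) and 0.229 ± 0.396 (SD, n = 3). The Log2FC was -4.38 ± 1.77 (SE), with a Benjamini-Hochberg adjusted *P* of 0.319 by edgeR's quasi-likelihood test. Without control 3 it was -2.76 and no longer passed the DEG thresholds, and without control 2 as well it was 0.62.

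*Pmch* encodes the precursor of melanin-concentrating hormone, a peptide that promotes feeding. It was at 0.615, 1.22 and 19.2 normalized CPM in controls 1, 2 and 3, and at 0.339, 0.705 and 0.534 in *AP1AR-DT* OE libraries A, B and C. Control 3 stood 15.6-fold above the next library and held 84.9% of the 1127 counts, while the other 5 libraries lay between 0.339 and 1.22. The overlapping gene *Parpbp* had the same highest library, with 0.836, 1.43 and 8.87 normalized CPM in controls and 0.773, 1.45 and 0.553 in *AP1AR-DT* OE mice, and how many of these counts belong to which gene was not tested. The group means of *Pmch* were 7.0 ± 10.5 (SD, n = 3) and 0.526 ± 0.183 (SD, n = 3). The Log2FC was -3.73 ± 1.29 (SE), with a Benjamini-Hochberg adjusted *P* of 0.296 in the quasi-likelihood test of edgeR, and without control 3 it was -0.80 and no longer passed the DEG thresholds.

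*Trh*, the precursor of thyrotropin-releasing hormone that drives the thyroid axis, was at 2.90, 121 and 8.57 normalized CPM in controls 1, 2 and 3, and at 6.88, 3.10 and 22.5 in *AP1AR-DT* OE libraries A, B and C. Control 2 was again the highest library, but library C came next and lay above control 3. The group means were 44.1 ± 66.5 (SD, n = 3) and 10.8 ± 10.3 (SD, n = 3), with a Log2FC of -2.03 ± 1.34 (SE) and a Benjamini-Hochberg adjusted *P* of 0.491 by edgeR's quasi-likelihood test. Without control 2 the Log2FC was 0.92.

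*Gal*, which encodes the precursor of galanin, was at 0.737, 16.4 and 2.40 normalized CPM in controls 1, 2 and 3, and at 0.962, 0.705 and 2.76 in *AP1AR-DT* OE libraries A, B and C. Control 2 was the highest library, and the other 5 lay between 0.705 and 2.76 with the groups mixed. The Log2FC was -2.14 ± 1.09 (SE), with a Benjamini-Hochberg adjusted *P* of 0.390 in the quasi-likelihood test of edgeR, and without control 2 it was -0.09.

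The arcuate peptides *Pomc* and *Agrp* oppose each other in the control of feeding. *Pomc*, the precursor of melanocyte-stimulating hormone, ACTH and beta-endorphin, was at 2.73, 11.8 and 2.38 normalized CPM in controls 1, 2 and 3, and at 3.30, 5.47 and 3.62 in *AP1AR-DT* OE libraries A, B and C. Control 2 was the highest library, and library B came next. The Log2FC was -0.45 ± 0.62 (SE, Benjamini-Hochberg adjusted *P* = 0.753 in the quasi-likelihood test of edgeR), and without control 2 it was 0.70. *Agrp*, the antagonist of the melanocortin receptors, was low in all libraries, with 0.0492, 0.361 and 0.581 normalized CPM in controls and 0.226, 0.538 and 0.286 in *AP1AR-DT* OE mice, from 2 to 29 counts a library. Its overlapping genes *Ctcf* and *Gm5914* were at 51.1 to 59.9 and 0.0492 to 0.352 normalized CPM. How many of these counts belong to which gene was not tested, so *Agrp* itself may not be present in each library. The groups overlapped for *Agrp*, with a Log2FC of 0.07 ± 0.84 (SE, Benjamini-Hochberg adjusted *P* = 0.975 by edgeR's quasi-likelihood test).

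*Cartpt*, the precursor of the CART peptides, had the smallest range between libraries of the 9 members tested. It was at 46.6, 25.5 and 15.7 normalized CPM in controls 1, 2 and 3, and at 52.9, 35.5 and 27.5 in *AP1AR-DT* OE libraries A, B and C. Its highest libraries were A and control 1, and control 3 was the lowest. The Log2FC was 0.40 ± 0.41 (SE, Benjamini-Hochberg adjusted *P* = 0.657 by edgeR's quasi-likelihood test). *Ghrh*, which encodes growth hormone-releasing hormone, had 6 counts in control 3, 2 in library A and 0 in the other 4 libraries, and no fold is given for it.

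Taken by the range between libraries on the scale of log2(normalized CPM + 0.1), *Oxt* varied most, over 11.5 units, followed by *Avp* (9.41), *Hcrt* (6.83), *Pmch* (5.45), *Trh* (5.33), *Gal* (4.36), *Pomc* (2.26), *Agrp* (2.19) and *Cartpt* (1.74). The median of these 9 ranges was 5.33, and that of all genes tested 0.746. A range of at least 3 units was found in 6 of the 9 and in 3.92% of all genes tested. Variation within the groups, as edgeR's biological coefficient of variation, was 1.86 for *Oxt*, 1.54 for *Hcrt*, 1.21 for *Avp* and 0.364 for *Cartpt*, beside 0.313 for all genes. The members were chosen partly because such markers varied between these libraries, so nothing is read from these comparisons with all genes.

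Levels can be compared between genes only per length. As the median over the 6 libraries of normalized CPM per kilobase of exonic sequence, *Cartpt* was at 24.7, *Trh* at 5.58, *Pomc* at 2.63, *Oxt* at 2.53, *Gal* at 2.13, *Avp* at 1.10, *Pmch* at 0.881, *Hcrt* at 0.557, *Agrp* at 0.32 and *Ghrh* at 0. The ranges of neighbours in this order overlapped throughout. In control 2 the order was another, with *Oxt* at 523, *Avp* at 320 and *Trh* at 87.3 per kilobase, all above *Cartpt* at 19.96. In control 3, *Oxt* was at 34.6, *Avp* at 26.2, *Pmch* at 25.6 and *Hcrt* at 15.1 per kilobase. Summed over the members other than *Cartpt*, the level was 619 normalized CPM in control 2 and 78.2 in control 3, and from 7.35 to 31.8 in the other 4 libraries.

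Of the 9 members tested, 5 were highest in control 2 and 3 in control 3, beside 18.6% and 21.9% of all genes tested. Nothing is read from these counts either, because the choice of the members drew on levels in these libraries. On the log2 scale, control 2 was above control 3 by 3.91 for *Oxt*, 3.80 for *Trh*, 3.60 for *Avp*, 2.72 for *Gal* and 2.26 for *Pomc*. The orexin and melanin-concentrating hormone genes of the lateral area went the other way, with -1.87 for *Hcrt* and -3.86 for *Pmch*. The ratio of *Trh* to *Avp* counts was 0.655 in control 2 and 0.566 in control 3, against 3.55 to 56.3 in the other 4 libraries. That of *Hcrt* to *Avp* was 0.0163 in control 2 and 0.747 in control 3.

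**Figure D2:**
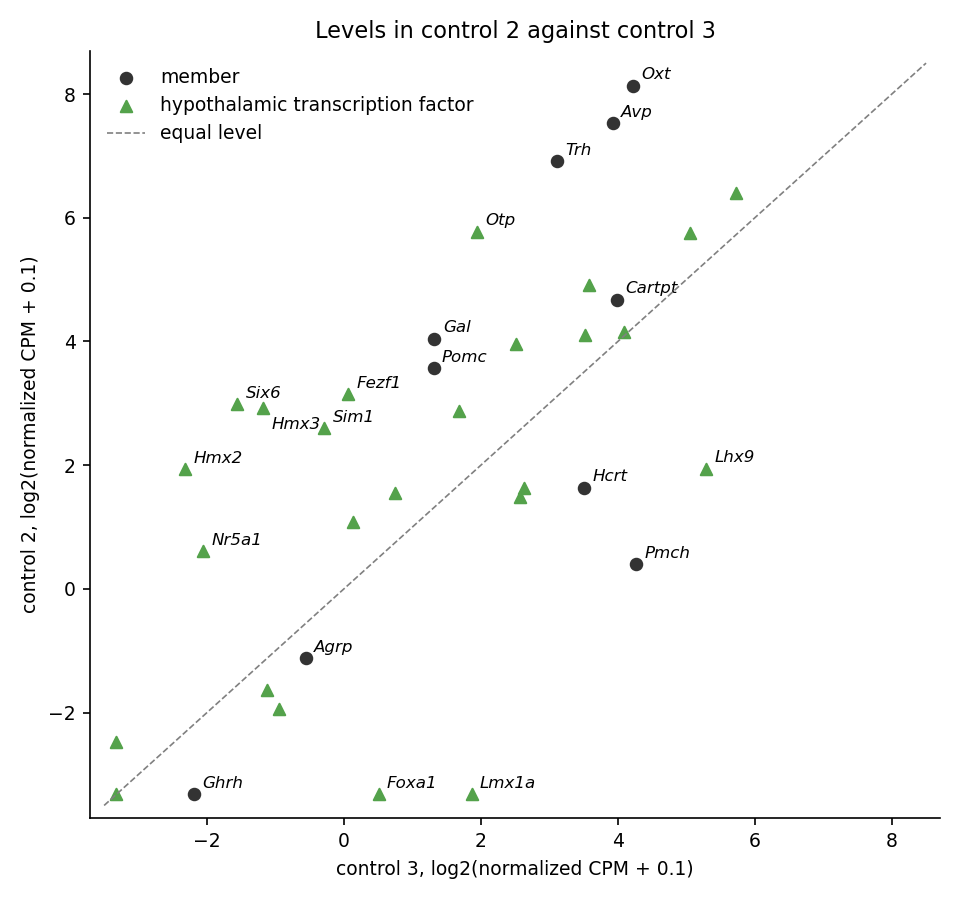
Level in control 2 (vertical axis) against control 3 (horizontal axis), both as log2(normalized CPM + 0.1), for the 10 neuropeptide genes (black circles) and 25 hypothalamic transcription factors (green triangles), with a dashed line of equal level. *Oxt*, *Avp*, *Trh* and the transcription factor *Otp* lie more than 3 units above the line, as do *Six6*, *Hmx2*, *Hmx3* and *Fezf1*, and *Pmch*, *Lhx9*, *Foxa1* and *Lmx1a* more than 3 units below it.

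Transcription factors that specify hypothalamic neurons were read for the same libraries. Of the 25 listed, 18 were tested, and 5 were DEGs, all lower in *AP1AR-DT* OE mice (*Irx5*, *Otp*, *Foxb1*, *Six6* and *Lhx9*). Among all genes tested, 7.15% were DEGs lower in *AP1AR-DT* OE mice. Of the 18, 0 were DEGs higher, 0 passed an adjusted *P* of 0.05 in edgeR's quasi-likelihood test, and the median Log2FC was -0.82. *Otp*, which is needed for the neurons that make vasopressin, oxytocin and TRH, was at 0, 54.6 and 3.76 normalized CPM in controls 1, 2 and 3, and between 0.302 and 0.427 in *AP1AR-DT* OE mice. *Sim1*, which acts beside *Otp* in the paraventricular nucleus, was at 5.98 in control 2 and 0.721 in control 3 and had no count in the other 4 libraries. Both thus had the same order of libraries as *Avp* and *Oxt*, control 2 then control 3.

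Other factors also differed between control 2 and control 3. *Six6* was at 7.85 normalized CPM in control 2 and at 0.240 in control 3, *Hmx3* at 7.51 and 0.340, and *Nr5a1*, which marks the ventromedial nucleus, at 1.43 and 0.140 with no count in the other 4 libraries. *Lhx9*, which is expressed in the thalamus as well as in the hypothalamus, was at 38.9 in control 3 and 3.76 in control 2. *Lmx1a* (3.54) and *Foxa1* (1.32) were also highest in control 3 and had no count in control 2, and *Foxb1* was at 6.07 in control 3 and 2.99 in control 2. *Nkx2-1* had no such peak, with 11.9 to 30.02 normalized CPM over the 6 libraries. Of 21 other genes of hypothalamic neurons, all were tested and 15 were highest in control 2, where 18.6% of all genes tested were highest. Among them were the ghrelin receptor *Ghsr* (5.18 in control 2 and at most 0.553 elsewhere), the calcitonin receptor *Calcr* (28.2 and at most 8.92) and *Irs4* (149.5 and at most 43.4). *Prlr* and *Lepr*, the receptors of prolactin and leptin, were instead highest in control 3, at 54.8 and 8.41. *Slc17a6*, the vesicular glutamate transporter of many subcortical neurons, and *Hdc*, which makes histamine, were DEGs of this list, lower in *AP1AR-DT* OE mice.

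The receptors of the peptides varied less between libraries than the peptides did. Of 17 receptor genes listed, which do not include *Mc4r*, 12 were tested and 0 were DEGs, beside 12.2% of all genes tested. An unadjusted *P* under 0.05 in edgeR's quasi-likelihood test was found for 0 of the 12 and for 15.1% of all genes tested. The median range of the receptors was 1.48 log2 units, below the 5.33 of the peptides and above the 0.746 of all genes tested. *Avpr1a*, the vasopressin receptor of the brain, was at 11.1, 8.63 and 3.56 normalized CPM in controls 1, 2 and 3, and at 5.66, 7.66 and 10.1 in *AP1AR-DT* OE libraries A, B and C. Control 1, with the lowest *Avp*, had the highest *Avpr1a*. *Oxtr*, the oxytocin receptor, was at 16.0, 9.08 and 11.4 in controls and at 11.5, 19.3 and 14.9 in *AP1AR-DT* OE mice, and control 2, with the highest *Oxt*, had the lowest *Oxtr*. Of the 12, 4 were highest in control 2, beside 18.6% of all genes tested, among them the orexin receptor *Hcrtr1*, at 9.10 beside 3.37 to 4.09 in the other 5 libraries. The galanin receptors *Galr1* (6.85) and *Galr3* (2.21) were also highest in control 2, as *Gal* was, while *Galr2* was highest in library B (1.52). No relation between a peptide and its receptor was tested. *Mchr1*, the receptor of melanin-concentrating hormone, was at 29.0, 12.6 and 10.7 in controls and at 32.2, 25.2 and 18.0 in *AP1AR-DT* OE mice, lowest in the library with the highest *Pmch*.

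Genes that cut and store neuropeptides had a small median range between libraries, although some varied more. Of 14 such genes, all tested, *Chga*, a core protein of dense-core granules, was the only DEG (Log2FC 0.33 ± 0.12 (SE), higher in *AP1AR-DT* OE mice, Benjamini-Hochberg adjusted *P* of 0.296 in the quasi-likelihood test of edgeR), and their median range was 0.603 log2 units, below the 0.746 of all genes. The summed level of the 14 was 5824 to 6665 normalized CPM, of which *Cpe* alone took 2087 to 2761. The prohormone convertase gene *Pcsk1* was at 11.9, 31.5 and 23.3 normalized CPM in controls 1, 2 and 3 and at 13.3, 11.8 and 17.8 in *AP1AR-DT* OE mice, highest in control 2. *Resp18*, a granule protein, ranged most, from 28.3 in control 3 to 140.5 in control 2. *Scg2* was at 667 in control 2 and at 255 to 404 in the others. Of the 14 genes, 5 were highest in control 2 and 4 in library B.

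Of 25 other neuropeptide genes, 21 were tested. *Npy*, a peptide of arcuate neurons and of cortical interneurons, was the only DEG, higher in *AP1AR-DT* OE mice (Log2FC 0.82 ± 0.34 (SE), Benjamini-Hochberg adjusted *P* of 0.325 by edgeR's quasi-likelihood test). It was at 9.96, 3.92 and 8.73 normalized CPM in controls and 12.8, 15.7 and 11.1 in *AP1AR-DT* OE mice, with no overlap of the groups. *Adcyap1*, the precursor of PACAP, was at 1.23, 29.5 and 11.7 in controls and at 3.22, 2.41 and 7.09 in *AP1AR-DT* OE mice, so that control 2 and control 3 were its highest libraries. *Vip* and *Ucn3* were highest in control 2, at 13.4 and 3.59, whereas *Cck* was lowest in control 1 at 8.87 and highest in control 3 at 128.5.

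Markers of other tissues also differed between libraries, not always in the order of the neuropeptides, and their part in the levels of the neuropeptides was not tested. Of 12 choroid plexus genes, 10 were tested, 10 of 10 were highest in control 3 and 8 were DEGs, all lower in *AP1AR-DT* OE mice. Among all genes tested, 21.9% were highest in control 3 and 7.15% were DEGs lower in *AP1AR-DT* OE mice. An adjusted *P* under 0.05 in edgeR's quasi-likelihood test was found for 0 of the choroid plexus and 0 of the thalamus genes. Their summed level was 4150 normalized CPM in control 3 and 56.4 to 82.5 in the other 5 libraries, and *Ttr*, the transthyretin of the choroid plexus, was at 3428 in control 3 and at 1.06 to 5.43 in the others. Thalamus genes were highest in control 3 in 12 of 12, with 8 DEGs, all lower in *AP1AR-DT* OE mice, and a sum of 1184 normalized CPM there against 176 to 310 elsewhere. *Shox2*, a factor of thalamic neurons, was at 62.0 in control 3 and at most 0.341 in the others. Among 8 hippocampus genes, of which 7 were tested, 4 were highest in control 3, and the DEGs were *Prox1*, lower, and *Fibcd1*, higher in *AP1AR-DT* OE mice. The summed level of the hippocampus genes was 378 normalized CPM in control 3, below library A at 475 and control 1 at 402. Control 3 was thus the highest library for *Hcrt* and *Pmch* and for the choroid plexus and thalamus genes, and control 2, with the highest *Avp* and *Oxt*, was not the highest for any choroid plexus or thalamus gene tested.

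Striatum genes, 14 of 14, were highest in *AP1AR-DT* OE library A, with sums of 1748, 481 and 662 normalized CPM in controls 1, 2 and 3 and 2996, 1079 and 1165 in libraries A, B and C. Library A and control 1 were the highest for this sum and for *Cartpt* alike, and 0 of the 14 were DEGs, with an unadjusted *P* under 0.05 in edgeR's quasi-likelihood test for 0 of them. Cortical excitatory neuron genes had their lowest sum in control 2, at 1436 normalized CPM, against 2074 to 3607 in the other libraries, and of the 12 tested *Cux2* was a DEG higher and *Rorb* a DEG lower in *AP1AR-DT* OE mice. Among 8 septum and basal forebrain genes, *Ngfr* was the only DEG, higher in *AP1AR-DT* OE mice, and among 8 genes of tanycytes, the cells that line the third ventricle beside the arcuate nucleus, *Scn7a* was the only DEG, lower.

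Pituitary genes bear on *Pomc*, which corticotrophs also make. Of 12 listed, 4 were tested, *Ghrhr* and *Pou1f1* had no count in any library, and *Lhb* was the only DEG, lower in *AP1AR-DT* OE mice. *Gh*, growth hormone, was at 2.11, 11.02 and 0.801 normalized CPM in controls 1, 2 and 3 and at 0.170, 8.09 and 3.14 in *AP1AR-DT* OE libraries A, B and C. *Prl*, prolactin, was at 1.61 in control 2 and 1.52 in library B and had no count in the other 4. Control 2 and library B were thus the highest libraries for *Pomc*, *Gh* and *Prl*, but not for most pituitary genes tested. Of these 4, 1 (*Gh*) was highest in control 2. In control 3, 2 were highest, *Lhb* at 5.02 and *Tshb* at 1.80, and *Pitx1* was highest in library C at 0.229. The part of pituitary RNA in *Pomc* was not tested. *Tbx19*, the factor of corticotrophs, was at no more than 0.201 in any library.

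**Figure D3:**
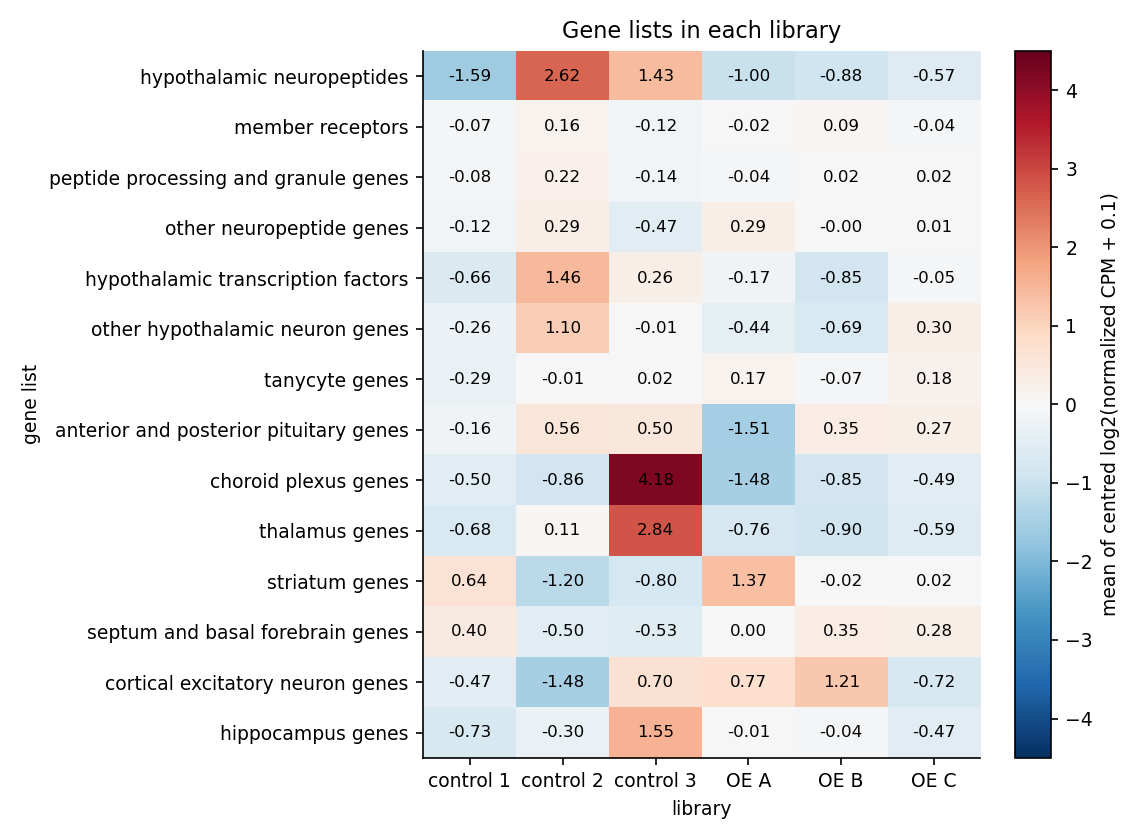
Mean of centred log2(normalized CPM + 0.1) over the tested genes of each list (rows) in each library (columns), each gene centred on its own mean over the 6 libraries, with red above and blue below that mean. The neuropeptide genes range from -1.59 in control 1 to 2.62 in control 2, and choroid plexus and thalamus genes peak in control 3 (4.18 and 2.84). The list means of the receptors and processing genes stay within 0.22 units in every library, although single genes of these lists range more widely.

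The non-member genes whose pattern was most like that of the neuropeptides were searched among the 2614 tested genes with a range of at least 2 log2 units. Likeness was the Pearson correlation over the 6 libraries with the mean of the 10 centred members, which was -1.46, 2.33 and 1.37 in controls 1, 2 and 3 and -0.88, -0.82 and -0.54 in *AP1AR-DT* OE libraries A, B and C. The 15 most alike had an r from 0.931 to 0.996, a description of 6 points that share their libraries. They were *Nr2f2*, *Acsm3*, *Mab21l2*, *Otp*, *Apobec2*, *Greb1*, *Cbln2*, *Gm16551*, *Cbln1*, *Gt(ROSA)26Sor*, *Gldn*, *Adcyap1*, *Zfp54*, *Ebf2* and *Anxa8*. *Nr2f2*, a nuclear receptor, was at 5.65, 49.4 and 34.3 normalized CPM in controls and at 7.58, 8.25 and 8.90 in *AP1AR-DT* OE mice. *Cbln1*, a secreted synaptic organizer, was at 10.7, 59.7 and 71.2 in controls and at 11.8, 12.2 and 21.1 in *AP1AR-DT* OE mice. Control 1 lay below the *AP1AR-DT* OE libraries for both.

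Leaving out libraries shows how the calls changed, but a call can also be lost because fewer libraries remain. With all 6 libraries 4 of the 9 members were DEGs. Without control 2 there were 2 (*Avp* and *Pmch*), with 9.79% of all genes tested in that fit, and without control 3 there were 2 (*Avp* and *Oxt*), with 10.8% of all genes. Without both there were 0, with 7.59% of all genes. Without control 1 there were 6, with *Gal* (lower) and *Cartpt* (higher, Log2FC 0.91) added, and 15% of all genes were DEGs. Leaving out *AP1AR-DT* OE library A left 1 (*Avp*), with 7.19% of all genes, library B 2 (*Avp* and *Hcrt*), with 6.33%, and library C 1 (*Avp*), with 15.6%. Without control 2 and control 3, 7 of the 9 tested members had a Log2FC of the opposite sign. That of *Oxt* was 8.505 because the lone control 1 has no count of it, a value that depends on the prior count. This fit takes the single control library to vary like the *AP1AR-DT* OE libraries, and it was chosen after seeing the data.

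**Figure D4:**
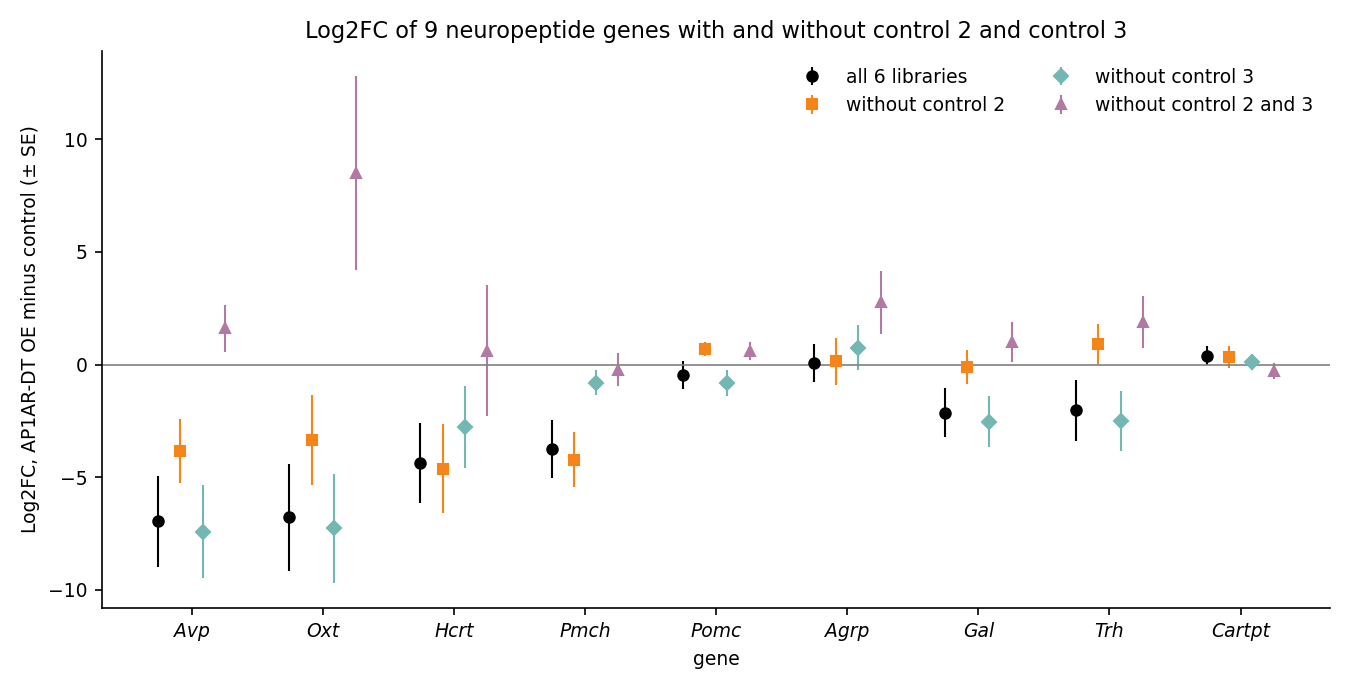
Log2FC (*AP1AR-DT* OE minus control, points) with its SE (vertical lines) of the 9 tested neuropeptide genes in edgeR's fit with all 6 libraries (black), without control 2 (orange), without control 3 (turquoise) and without both (purple). *Avp*, *Oxt*, *Hcrt* and *Pmch* lie at -3.73 or lower with all libraries, and without both controls *Pmch* is at -0.22 and the other 3 are above 0, *Oxt* against a control of 0 counts.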

How the data were processed

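The deposited counts of 3 control and 3 *AP1AR-DT* OE libraries were used. According to the methods of the study, the authors extracted RNA with TRIzol, mapped paired-end reads to GRCm38 with Bowtie2 and derived counts, whole numbers, from the coverage that StringTie gave each GENCODE gene, so a count is not a read pair. The most frequent count from 1 to 20 was 4 in every library, and the floors cover counting error only. The submitters' processing notes instead name mm9, TopHat2 2.0.4, SAMtools, HTSeq, Cuffdiff and edgeR 2.6.12. The use of strand is not given in the sources used here. The same table holds the authors' mean normalized count and their DESeq2 fold changes and P-values, which were not used.

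Groups came from the labels. Separate mice are named, with nothing on batches. Genes were tested in R 4.3.3 with edgeR 4.0.16 (filterByExpr, TMM factors, quasi-likelihood F-test, two-sided, Benjamini-Hochberg adjustment over 21844 genes, no covariate), and the code was tested on simulated data. DEGs had *P* under 0.05 and |Log2FC| above 0.32. The SE of a Log2FC in edgeR's fits was its absolute value divided by the square root of the F statistic. Log2 levels used a pseudocount of 0.1 normalized CPM. Of 52390 identifiers, 52133 were found in GENCODE vM21, the source of coordinates. The alternatives were DESeq2 1.42.0, its size factors, other filters on low counts, a GC correction and leaving out libraries. No library pair agreed within sampling noise (chi-square per gene of at least 41.6). Beside the members, the text names the DEGs of each list (at most 6) and its 4 genes with the widest range, not all of which are printed, and genes that define a tissue check. The result of 1 DEG of a list is not reported here. Others (*Sim1*, *Nr5a1*, *Nkx2-1*, *Lmx1a*, *Foxa1*, *Irs4*, *Oxtr*, *Hcrtr1*, *Prl*, *Tbx19*, *Parpbp*) were chosen after their values were seen. The members and lists were chosen with earlier results of these data known.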

Additional observations from a re-analysis of the deposited data

How the results depend on the processing

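The number of DEGs among all genes was 2675, and it was 1567 with the GC correction and 1430 to 3508 when a library was left out, lowest without *AP1AR-DT* OE library B. The number of members called DEGs was 4. By DESeq2's Wald test it was 2, where 2965 of 21844 genes were DEGs. With at least 10 counts in every library it was 1 of 5 tested, where 2675 of 19300 genes were DEGs. When a library was left out it was 1 to 6, where 6.33% to 15.6% of all genes tested were DEGs. DESeq2 gave no *P* for *Pmch*, and the filter of 10 counts removed *Avp*, *Oxt*, *Hcrt* and *Agrp*. An alternative without control 2 and control 3 was chosen after seeing the data. There the Log2FC reversed to 1.61 for *Avp*, 8.505 for *Oxt*, 0.62 for *Hcrt*, 0.60 for *Pomc*, 1.00 for *Gal*, 1.90 for *Trh* and -0.27 for *Cartpt*. Without control 2 it reversed to 0.70 for *Pomc* and 0.92 for *Trh*. That of *Agrp* reversed to -0.13 with the GC correction, -0.42 without control 1 and -0.37 without *AP1AR-DT* OE library B. Leaving out each library in turn, the Log2FC of *Pomc* ranged from -0.80 to 0.70, that of *Agrp* from -0.42 to 0.76 and that of *Trh* from -3.13 to 0.92. Adjusted *P* over all fits ranged from 0.0159 to 0.679 for *Avp*, 0.227 to 0.661 for *Oxt*, 0.244 to 0.958 for *Hcrt* and 0.233 to 0.937 for *Pmch*. The causes of the changes under the GC correction and DESeq2 were not tested. Members at or under 3 counts in a library are not told from 0 at this depth. No paired analysis was possible because the groups share 1 replicate number and the *AP1AR-DT* OE columns carry no mouse number.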
